A study of Drosophila melanogaster with 6 samples.

Results

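Central carbon metabolism was followed through 35 enzyme genes, from trehalose and glucose to pyruvate, the citrate cycle, acetyl-CoA and fatty acid synthesis. They were found by symbol, and 34 of them were paired with an identifier among the 17471 genes counted. Fum1, a fumarase gene, is not analysed here. The neurons were olfactory projection neurons of the anterodorsal lineage (adPNs) of Drosophila melanogaster, taken between 36 and 40 h after the puparium forms. There were 3 libraries labelled acj6 mutant, whose titles name acj66 and which are called mutant-labelled here. They were set against 3 wild-type libraries of the same cell type and stage. Neither the lesion, the sex of the flies, nor the driver that marked the cells is given in the labels, and every library held reads of an mCD8-GFP transgene. The assay was RNA sequencing after an adapted SMART-seq2 preparation of total RNA, in which whole transcripts are copied and amplified without molecular identifiers.

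Glycolysis splits glucose to pyruvate in the cytosol, and pyruvate dehydrogenase turns pyruvate into acetyl-CoA in mitochondria. The citrate cycle oxidises that acetyl group, and citrate or acetate can also supply acetyl-CoA for fatty acid and sterol synthesis. In the fly brain, glia are known to break down trehalose and to pass lactate and alanine to neurons, which oxidise them.

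Gene counts ranged from 24467328 to 38279909 per library. Libraries of a group correlated at 0.916 to 0.934 across genes (Pearson's r of log2 CPM), and the leading principal component (30.2% of the variance) placed the groups apart. The transcript of acj6, the POU-domain transcription factor gene named in the labels, was at 251 ± 24.2 CPM in mutant-labelled and 149 ± 7.96 CPM in wild-type libraries (SD, n = 3 each; edgeR adjusted p 0.0124, or 0.0658 without wild-type replicate 2). Since the lesion is not described, this gene-wide count is no check of the genotype. The pan-neuronal marker elav was at 253 ± 20.7 CPM in mutant-labelled and 286 ± 21.6 CPM in wild-type libraries. The adPN marker C15 was at 159 ± 19.1 CPM in mutant-labelled and 162 ± 30.1 CPM in wild-type libraries, so markers of the labelled cell type were present in both groups.

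Most of the carbon-metabolism genes were abundant in these neurons. Values are read counts scaled to library size (CPM, with TMM factors), divided by transcript length in kb wherever genes are compared with each other. Of the 34 genes, 22 averaged at least 100 CPM, and 16 lay in the top 10% of tested genes by level per kb. Gapdh2, glyceraldehyde-3-phosphate dehydrogenase, was at 730.3 ± 18.7 CPM per kb in mutant-labelled and 996 ± 62.6 CPM per kb in wild-type libraries, where no other member stood higher. Ald1, the aldolase gene, was at 749.8 ± 45.7 CPM per kb in mutant-labelled and 726 ± 55.7 in wild-type libraries. Those values overlap those of Gapdh2 in the mutant-labelled libraries, so the pair had no order there. Next came Gapdh1, at 533 ± 46.1 CPM per kb in mutant-labelled and 568 ± 53.5 in wild-type libraries. Mitochondrial malate dehydrogenase Mdh2 was at 493 ± 42.1 CPM per kb in mutant-labelled and 537 ± 5.08 in wild-type libraries, which overlapped Gapdh1. The succinyl-CoA synthetase subunit Scsalpha1 was at 403 ± 15.7 CPM per kb in mutant-labelled and 491 ± 11.2 in wild-type libraries. Within a group, the median coefficient of variation over the 32 members tested was 8.59% in mutant-labelled and 10.2% in wild-type libraries. Over all tested genes the median was 23.5% in mutant-labelled and 21.9% in wild-type libraries. These sets were not matched for level, with a median of 201.7 CPM over the members and 23.97 CPM over all tested genes. The comparison therefore cannot show that carbon-metabolism genes vary less than others of their level. Sparse members spread widely, such as Pgd at 77.4% in mutant-labelled and 49.1% in wild-type libraries.

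At the low end were some of the committed steps and side branches. Others stood high, such as AcCoAS at 340 ± 25.9 CPM per kb in mutant-labelled and 146 ± 12.8 in wild-type libraries. ACC was low, at 5.89 ± 1.38 CPM per kb in mutant-labelled and 5.74 ± 2.20 in wild-type libraries. Phosphofructokinase Pfk, which commits sugar to glycolysis, was at 7.78 ± 1.40 CPM per kb in mutant-labelled and 10.2 ± 3.47 in wild-type libraries. Hexokinase Hex-A was at 13.3 ± 3.15 CPM per kb in mutant-labelled and 10.8 ± 1.24 in wild-type libraries. Hex-C, Ldh, Zw, Pgd and Pepck1 averaged under 10 CPM. Lactate dehydrogenase Ldh, which interconverts pyruvate and lactate, had 1.41, 0 and 0 CPM in mutant-labelled and 0.948, 0.596 and 0.119 CPM in wild-type libraries. The groups overlapped, and no difference in Ldh was detectable at this depth.

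**Figure D1:**
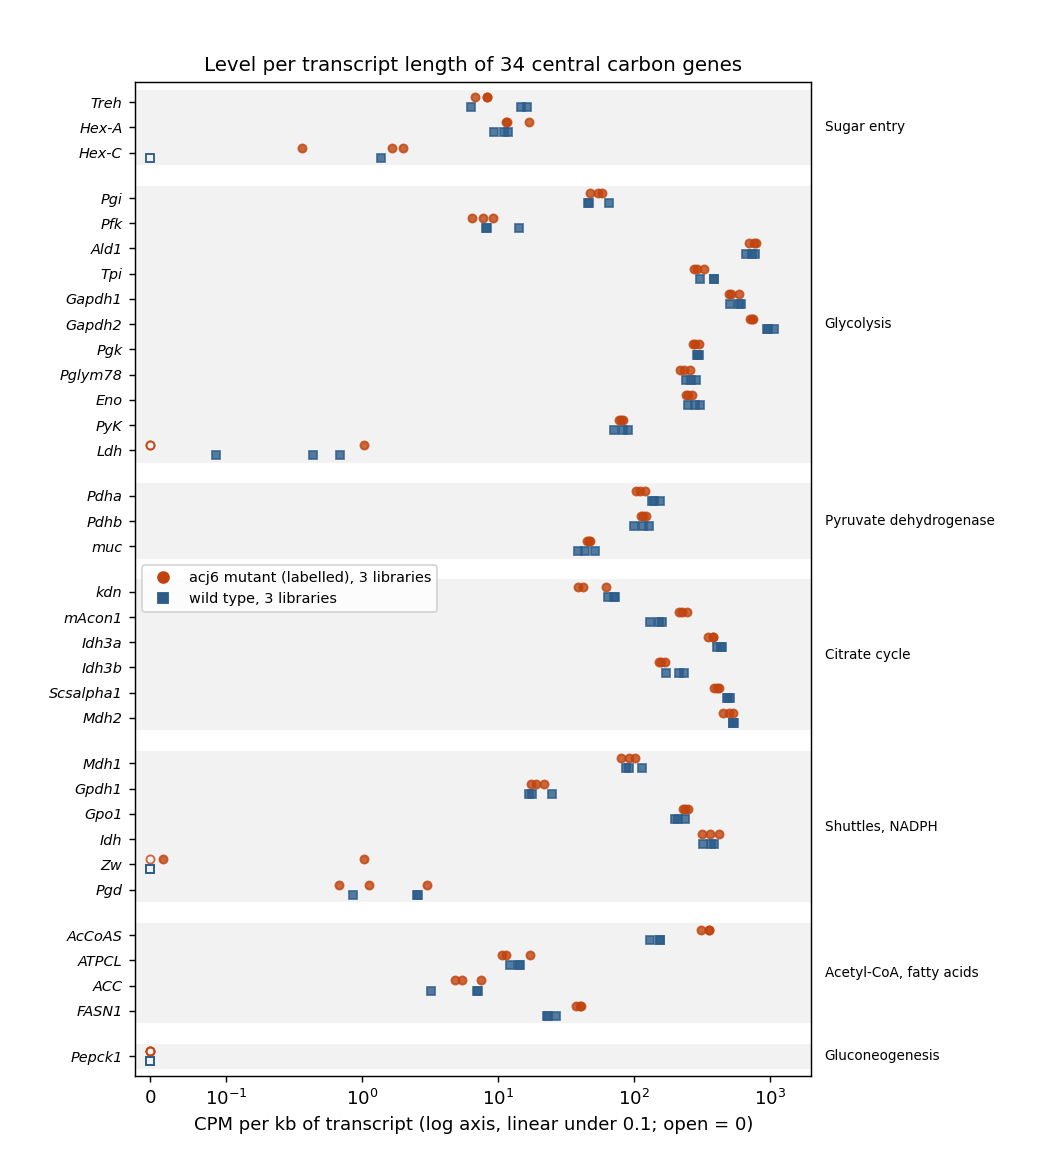
Level of each of the 34 genes in each library, in CPM per kb of transcript on a log axis that is linear under 0.1, grouped by pathway step. Circles are the 3 mutant-labelled and squares the 3 wild-type libraries, open symbols are counts of 0, and AcCoAS, FASN1 and mAcon1 stand to the right in the mutant-labelled libraries while Gapdh2 stands to the left.

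Between the genotypes 4 of these genes changed, while the combined level of the set did not separate the groups. AcCoAS, FASN1 and mAcon1 rose in the mutant-labelled libraries and Gapdh2 fell. These were 3 higher and 1 lower of the 32 genes tested, at an adjusted p under 0.05 in edgeR's quasi-likelihood test. Over all 9229 genes tested, 4.40% were called, 3.07% as higher and 1.33% as lower. Abundant genes were called more often. Among genes averaging at least 100 CPM the share was 12.7% (9.44% higher and 3.28% lower), and 4 of the 22 members at that level were called, a share near that background. An unadjusted p under 0.05 was found for 8 of the 32 members and for 16.6% of all genes tested. The median log2 fold change (mutant-labelled minus wild type) was -0.07 over the 32 genes and -0.01 over all genes tested. The members summed to 11034, 11431 and 10737 CPM in mutant-labelled and 11112, 11264 and 11080 CPM in wild-type libraries, and these sums overlap.

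Values of the groups did not overlap for 9 of the 32 genes, 3 above and 6 below, where 23.2% of all tested genes showed no overlap (11.7% above and 11.5% below). The share was 38.3% among genes averaging at least 100 CPM, where all 9 belonged. For 23 of the 28 genes that were not called, the 95% interval of the log2 fold change lay within 1 on either side of 0. It lay within 0.5 for 15 of them. The labels do not say whether libraries came from separate animals or sorts, so the spread behind the p-values is that among these 6 libraries and may be purely technical. In bulk samples, fewer cells of a type and less RNA per cell cannot be told apart.

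**Figure D2:**
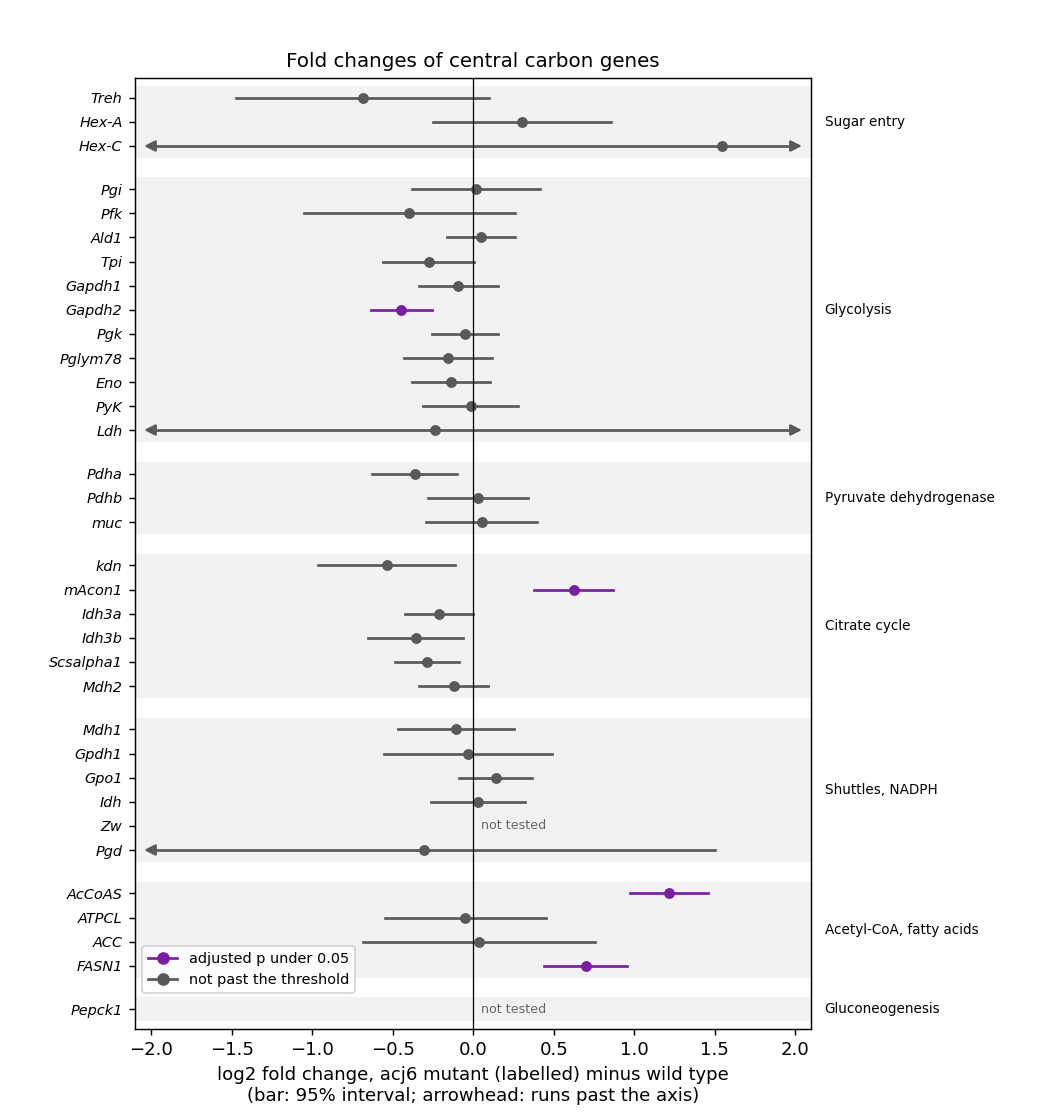
Log2 fold change of each gene, mutant-labelled minus wild type, with its 95% interval from the fit over all genes, and arrowheads where an interval runs past the axis. The intervals of AcCoAS, FASN1 and mAcon1 lie above 0 and that of Gapdh2 below it, and Zw and Pepck1 were not tested.

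Of the 4 called genes, AcCoAS changed most. AcCoAS (FBgn0012034, chromosome arm 3L) encodes acetyl-CoA synthetase, which charges free acetate with coenzyme A. It had 952, 966 and 838 CPM in mutant-labelled libraries, against 416, 416 and 356 CPM in wild-type libraries. Every mutant-labelled library was above every wild-type one. The fold was 2.32 (log2 fold change 1.21 ± 0.11 (SE), adjusted p 0.00223 in edgeR). The call held with each library left out in turn, with log2 fold changes between 1.14 and 1.28.

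FASN1 (FBgn0283427, 2L), the fatty acid synthase that builds palmitate from acetyl-CoA and malonyl-CoA, had 316, 347 and 341 CPM in mutant-labelled libraries, against 194, 197 and 228 CPM in wild-type libraries. The groups did not overlap, and the log2 fold change was 0.70 ± 0.11 (adjusted p 0.0131 in edgeR). This call was less firm. It was lost without mutant-labelled replicate 2 (adjusted p 0.0519), mutant-labelled replicate 3 (0.0508) or wild-type replicate 2 (0.0693). FASN1 has a long transcript (8519.5 bases), and libraries differed in how counts varied with transcript length. With that trend removed from each library, the log2 fold change of FASN1 was 0.39 and its adjusted p 0.114, while AcCoAS kept its call.

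The other enzymes of this branch gave no call. ATP citrate lyase, ATPCL, makes acetyl-CoA from citrate, and it had 67.5, 44.8 and 42.1 CPM in mutant-labelled and 55.5, 56.4 and 48.0 CPM in wild-type libraries. Its log2 fold change had a 95% interval of -0.55 to 0.45. Acetyl-CoA carboxylase, ACC, which makes malonyl-CoA, had 58.4, 37.9 and 42.4 CPM in mutant-labelled and 55.4, 25.1 and 54.6 CPM in wild-type libraries, with an interval of -0.68 to 0.76. Groups overlapped for both genes, and a change as large as that of FASN1 lay inside the interval of ACC but outside that of ATPCL. Per kb, AcCoAS stood at 20.4, 31.2 and 28.8 times ATPCL in mutant-labelled libraries and at 10.9, 10.7 and 10.7 times in wild-type libraries.

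**Figure D3:**
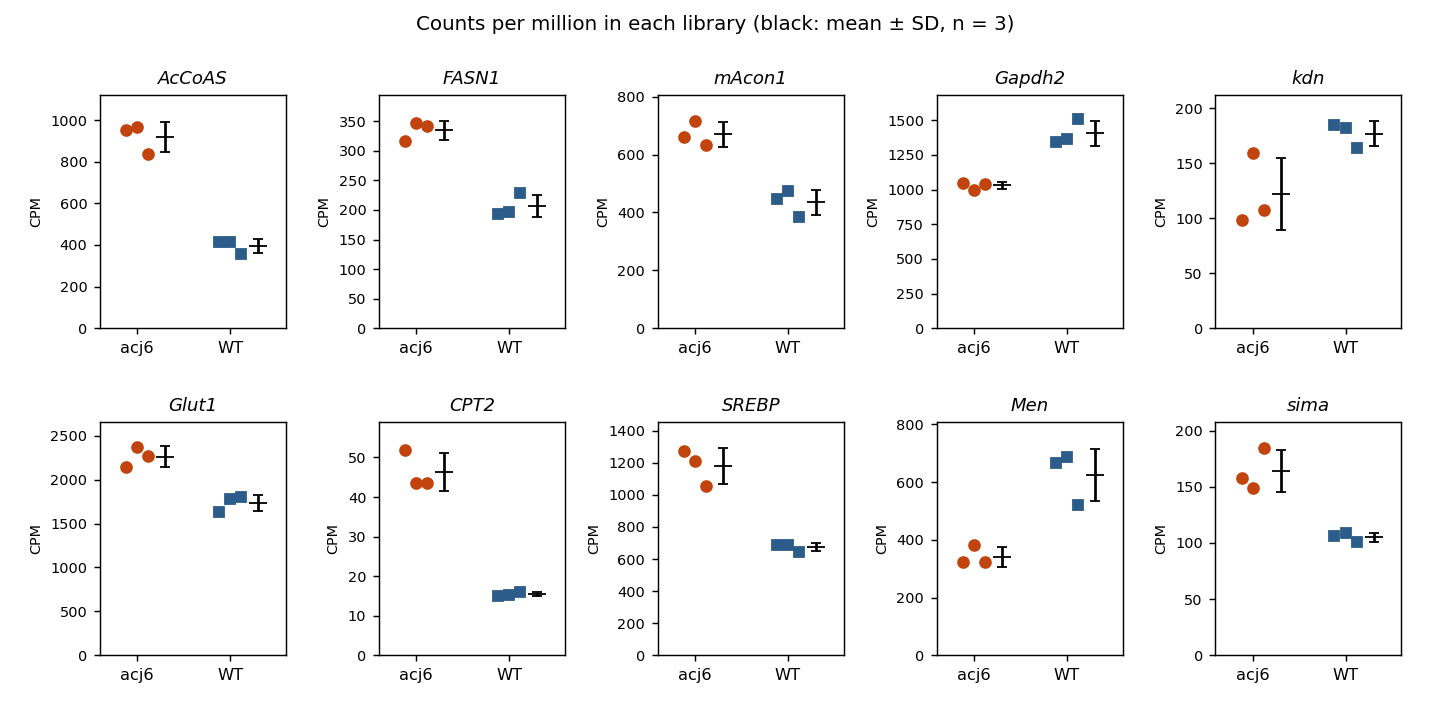
CPM of 10 genes in each library, with the mean ± SD in black (n = 3) and circles for mutant-labelled (acj6) and squares for wild-type (WT) libraries. The top row holds the 4 called members and kdn, which was not called (adjusted p 0.173), and the bottom row the 5 called genes from the wider pathway lists, and in all 10 panels the groups do not overlap.

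In the citrate cycle, mitochondrial aconitase rose and no other member was called in edgeR. mAcon1 (FBgn0010100, 2L), which turns citrate into isocitrate, had 661, 717 and 632 CPM in mutant-labelled libraries, against 446, 473 and 386 CPM in wild-type libraries. The log2 fold change was 0.62 ± 0.11 (adjusted p 0.0173 in edgeR), and the groups did not overlap. The call was lost without mutant-labelled replicate 1 (adjusted p 0.0520), mutant-labelled replicate 2 (0.0622) or wild-type replicate 3 (0.0542), and the log2 fold change stayed at 0.54 or above in every alternative.

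The enzyme just before it, citrate synthase, encoded by kdn, had 98.8, 159 and 108 CPM in mutant-labelled libraries, against 185, 182 and 164 CPM in wild-type libraries. The groups did not overlap, and the log2 fold change of -0.54 ± 0.19 was not called (adjusted p 0.173). Without mutant-labelled replicate 2, the highest of its group, it was -0.78 with an adjusted p of 0.0468. Per kb, the level of mAcon1 was 5.87, 3.94 and 5.14 times that of kdn in mutant-labelled libraries, and 2.11, 2.28 and 2.06 times in wild-type libraries. This ratio, like the others between genes and the sums over genes, was chosen after the values were seen and carries no test.

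The later steps gave no call, and their subunits lay on both sides of wild type. Idh3a, a subunit of the NAD-dependent isocitrate dehydrogenase, had 529, 531 and 484 CPM in mutant-labelled libraries, against 619, 602 and 565 CPM in wild-type libraries (log2 fold change -0.21 ± 0.09, adjusted p 0.303 in edgeR). Idh3b, another subunit, had 276, 293 and 266 CPM in mutant-labelled libraries, against 402, 370.5 and 298 CPM in wild-type libraries (-0.36 ± 0.13, adjusted p 0.193 in edgeR). Scsalpha1 had 528, 549.7 and 571 CPM in mutant-labelled libraries, against 655, 670.1 and 685 CPM in wild-type libraries. Its log2 fold change was -0.29 ± 0.09 (adjusted p 0.117 in edgeR and 0.0443 in DESeq2). For these 3 genes the groups did not overlap, with the mutant-labelled values below. The further subunit Idh3g of the same dehydrogenase, from the wider list, lay the other way, with 498, 504 and 494 CPM in mutant-labelled libraries, against 482, 464 and 467 CPM in wild-type libraries (log2 fold change 0.08, adjusted p 0.71 in edgeR). SdhB, a succinate dehydrogenase subunit on that list, also lay above without overlap, at 297 ± 13.8 CPM in mutant-labelled and 261 ± 19.1 CPM in wild-type libraries (adjusted p 0.454 in edgeR). ScsbetaA, a further succinyl-CoA synthetase subunit, lay below without overlap. It had 380, 378 and 381 CPM in mutant-labelled libraries, against 490, 404 and 382 CPM in wild-type libraries (adjusted p 0.542 in edgeR). Of the 16 tested genes on that list, 2 lay all above and 4 all below, where 23.2% of all tested genes showed no overlap. Mdh2, which regenerates oxaloacetate, had 661, 714 and 602 CPM in mutant-labelled and 724, 714 and 711 CPM in wild-type libraries, and its interval was -0.34 to 0.09.

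Pyruvate dehydrogenase showed different values for its subunits. Pdha, the E1 alpha subunit, had 207, 227 and 194 CPM in mutant-labelled libraries, against 290.4, 262 and 255 CPM in wild-type libraries, with no overlap and no call (log2 fold change -0.36 ± 0.12, adjusted p 0.134). Pdhb, the E1 beta subunit, was at 141 ± 6.18 CPM in mutant-labelled and 138 ± 17.2 CPM in wild-type libraries. The E2 acetyltransferase gene muc was at 98.6 ± 2.78 CPM in mutant-labelled and 95.1 ± 13.7 CPM in wild-type libraries (SD, n = 3 each). Groups overlapped for both. Pdha stood at 0.945, 0.994 and 0.928 times Pdhb per kb in mutant-labelled libraries and at 1.34, 1.41 and 1.06 times in wild-type libraries.

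**Figure D4:**
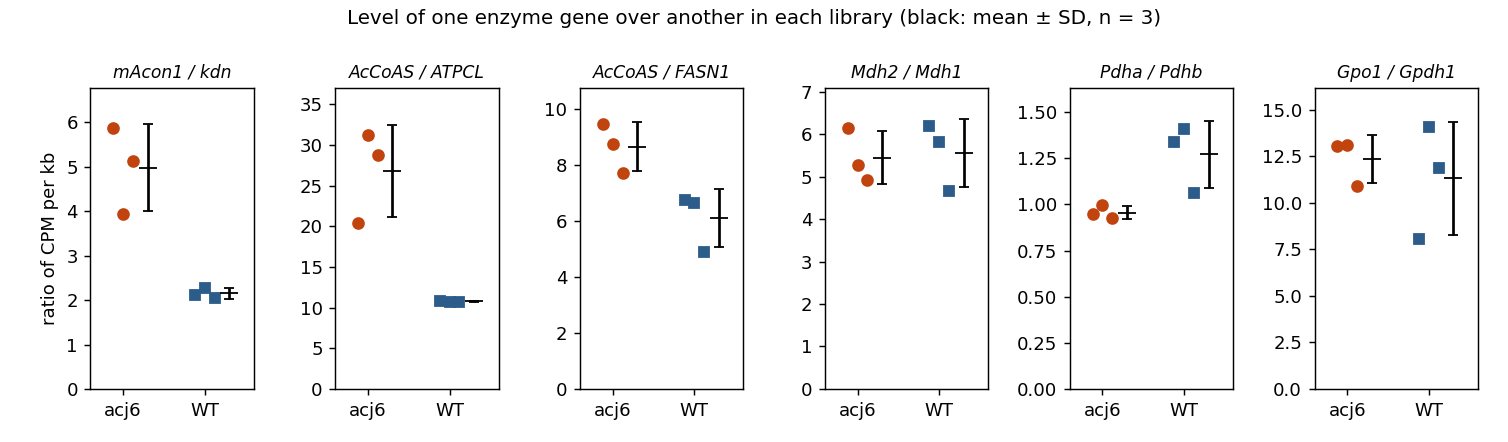
Level per kb of an enzyme gene over that of another in each library, with mean ± SD in black (n = 3), circles for mutant-labelled (acj6) and squares for wild-type (WT) libraries. The ratios of mAcon1 to kdn, AcCoAS to ATPCL and AcCoAS to FASN1 were above wild type in all 3 mutant-labelled libraries and that of Pdha to Pdhb below it, while Mdh2 to Mdh1 and Gpo1 to Gpdh1 overlapped.

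In glycolysis 1 of the 10 genes from Pgi to PyK was called, and the groups overlapped for the other 9. Over all genes tested, 4.40% were called and 23.2% showed no overlap. Among genes averaging at least 100 CPM, these shares were 12.7% and 38.3%, so 1 call of 10 is near that background. Gapdh2 (FBgn0001092, X) had 1047, 999 and 1043 CPM in mutant-labelled libraries, against 1345, 1362 and 1506 CPM in wild-type libraries. The groups did not overlap, and the log2 fold change was -0.45 ± 0.08 (adjusted p 0.0220 in edgeR). The call held without wild-type replicate 1 (adjusted p 0.0384). It was lost without mutant-labelled replicate 1 (0.0659), 2 (0.0685) or 3 (0.0800) and without wild-type replicate 2 (0.0826) or 3 (0.0747), at log2 fold changes from -0.46 to -0.40.

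Gapdh1, which encodes the same enzyme, had 699, 725 and 822 CPM in mutant-labelled and 712, 832 and 851 CPM in wild-type libraries, and these overlapped (log2 fold change -0.09 ± 0.11, adjusted p 0.742). Gapdh2 made up 59.9%, 57.9% and 55.8% of the pair per kb in mutant-labelled libraries, against 65.3%, 62.0% and 63.8% in wild-type libraries. The pair encodes the same enzyme, and no sequences were compared here, so the split of reads between them is uncertain. The sum of the pair was 1746, 1725 and 1865 CPM in mutant-labelled libraries, against 2057, 2195 and 2357 CPM in wild-type libraries. Reads with several alignments were left out of the counts, so any that matched both genes are missing from this sum too. Over all genes, such reads came to 2.63 ± 0.397 alignments per gene count in mutant-labelled and 3.70 ± 0.473 in wild-type libraries (SD, n = 3 each), without overlap. Their part in the Gapdh2 result was not tested.

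The remaining glycolytic genes were not called. Tpi, triose-phosphate isomerase, had 413, 349 and 366 CPM in mutant-labelled and 388, 491 and 489 CPM in wild-type libraries (log2 fold change -0.28 ± 0.13, adjusted p 0.315). Ald1, the most abundant of these genes, had an interval of -0.16 to 0.26, and phosphoglycerate kinase Pgk one of -0.26 to 0.16. Pgi, phosphoglucose isomerase (0.02 ± 0.18), and PyK, pyruvate kinase (-0.02 ± 0.13), had log2 fold changes close to 0. Enolase Eno (-0.14 ± 0.11), phosphoglycerate mutase Pglym78 (-0.16 ± 0.12) and Pfk (-0.40 ± 0.29) were below 0 by less than 2 standard errors. Summed from Pgi to PyK, the 10 genes came to 5021, 5001 and 5031 CPM in mutant-labelled libraries, against 5394, 5617 and 5771 CPM in wild-type libraries. Without Gapdh2 the sums were 3974, 4002 and 3988 CPM in mutant-labelled libraries, against 4049, 4254 and 4266 CPM in wild-type libraries, which also did not overlap.

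At the entry of sugar, Treh, the trehalase that splits the blood sugar of insects, had 19.9, 24.2 and 24.2 CPM in mutant-labelled and 48.1, 43.4 and 18.5 CPM in wild-type libraries. Wild-type replicate 3 lay below all the others, so the groups overlapped (log2 fold change -0.69 ± 0.35, adjusted p 0.375). Hex-A had 42.5, 29.05 and 28.5 CPM in mutant-labelled and 29.7, 27.8 and 23.6 CPM in wild-type libraries. Hex-C, a further hexokinase gene, had 113, 74 and 20 counts in mutant-labelled and 0, 0 and 52 counts in wild-type libraries. Neither was called.

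Among the members, genes of the shuttles that carry reducing power into mitochondria did not separate the groups. Gpo1, the mitochondrial glycerol-3-phosphate oxidase, was at 587 ± 25.8 CPM in mutant-labelled and 533 ± 46.3 CPM in wild-type libraries. Its cytosolic partner Gpdh1 was at 34.4 ± 3.59 CPM in mutant-labelled and 35.1 ± 7.79 CPM in wild-type libraries. Cytosolic malate dehydrogenase Mdh1 was at 112 ± 12.8 CPM in mutant-labelled and 120.0 ± 17.6 CPM in wild-type libraries. Idh, the NADP-dependent isocitrate dehydrogenase that yields NADPH, was at 661 ± 97.1 CPM in mutant-labelled and 648 ± 61.2 CPM in wild-type libraries. None of these 4 was called in edgeR, 0 had an unadjusted p under 0.05, and their groups overlapped. On the wider list, the aspartate aminotransferase gene Got1 lay below without overlap and without a call. It had 138, 174 and 134 CPM in mutant-labelled libraries, against 184, 210 and 210 CPM in wild-type libraries (log2 fold change -0.44 ± 0.14, adjusted p 0.138 in edgeR). For Got2, also on that list, the groups overlapped.

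Few reads fell on Zw, Pgd and Pepck1. Zw, glucose-6-phosphate dehydrogenase, had 0, 1 and 79 counts in mutant-labelled libraries and 0 counts in each wild-type library, where 3 counts, the limit a count of 0 allows, come to 0.0868 to 0.123 CPM. Pgd, the next enzyme of the pathway, had 1.99, 5.38 and 1.21 CPM in mutant-labelled and 4.56, 1.53 and 4.52 CPM in wild-type libraries, and the groups overlapped. Later enzymes of the pentose phosphate pathway had more reads, with Taldo, a transaldolase gene, at 50.5, 52.8 and 72.4 CPM in mutant-labelled and 63.4, 75.3 and 69.1 CPM in wild-type libraries, and without a call. Pepck1, the phosphoenolpyruvate carboxykinase of gluconeogenesis, had 0 counts in all 6 libraries. In the gene models used here all of its exon bases also belong to another gene on the same strand, a case in which the counting program assigns no read, so its 0 does not show absence.

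Further genes of the same pathways were read from lists. Of 77 listed, 61 were tested, and 4 rose and 1 fell, where 4.40% of all genes tested and 12.7% of those averaging at least 100 CPM were called. Their median log2 fold change was 0.00. By list these were 1 higher of 13 genes of sugar supply and glycolysis, 0 of 7 at pyruvate entry, 1 lower of 16 around the citrate cycle, 0 of 4 in the pentose phosphate pathway, 2 higher of 11 in acetyl-CoA and fatty acid metabolism, and 1 higher of 10 regulators. For the lists with 0 calls in edgeR, 1 pyruvate-entry gene and 0 pentose phosphate genes had an unadjusted p under 0.05.

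The 2 called genes of the acetyl-CoA and fatty acid list were SREBP and CPT2, while the median log2 fold change of its 11 tested genes was 0.07 and 4 of them lay below 0. SREBP, the transcription factor known in flies to activate fatty acid synthesis genes, had 1272, 1214 and 1057 CPM in mutant-labelled libraries, against 687, 688 and 647 CPM in wild-type libraries (log2 fold change 0.81 ± 0.10, adjusted p 0.00490 in edgeR). CPT2, which passes long-chain fatty acids to oxidation inside mitochondria, had 51.8, 43.6 and 43.5 CPM in mutant-labelled libraries, against 14.99, 15.3 and 15.9 CPM in wild-type libraries, a 3.01-fold difference (adjusted p 0.00726 in edgeR). The calls of both held in every alternative run, leave-outs included. Desat1, a fatty acid desaturase on the same list, gave no call, at 253 ± 31.3 CPM in mutant-labelled and 279 ± 50.4 CPM in wild-type libraries.

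Men, the malic enzyme that turns malate into pyruvate and yields NADPH, fell to 322, 382 and 322 CPM in mutant-labelled libraries, against 667, 687 and 521 CPM in wild-type libraries (log2 fold change -0.87 ± 0.13, adjusted p 0.0112 in edgeR). Its call also held in every alternative. Glut1, a glucose transporter gene, had 2139, 2376 and 2272 CPM in mutant-labelled libraries, against 1631, 1776 and 1798 CPM in wild-type libraries (log2 fold change 0.38 ± 0.08, adjusted p 0.0329 in edgeR). The hypoxia-inducible factor gene sima had 158, 149 and 185 CPM in mutant-labelled libraries, against 106, 109 and 100.9 CPM in wild-type libraries (0.64 ± 0.13, adjusted p 0.0334 in edgeR). Groups did not overlap for either gene. Both calls were lost with any 1 library left out, with adjusted p-values from 0.0619 to 0.109 for Glut1 and from 0.0601 to 0.115 for sima. With the length trend removed they were 0.126 and 0.109, and with library totals alone as the scaling they were 0.0604 and 0.0514.

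Some marker genes moved with the genotype. The neuron and adPN list summed to between 9572 and 9693 CPM in mutant-labelled and between 6436 and 6986 CPM in wild-type libraries, with brp, acj6 and kn called higher among its 10 genes. Most of that sum was brp, at 5846 ± 89.7 CPM in mutant-labelled and 3792 ± 157 CPM in wild-type libraries, and 5 of the 10, elav among them, had log2 fold changes below 0. The glial list summed to between 492 and 536 CPM in mutant-labelled and between 623 and 702 CPM in wild-type libraries, with 1 lower call of 10, nrv2. Without nrv2, a split made after its value was seen, the sums were 173 to 231 CPM in mutant-labelled and 211 to 266 CPM in wild-type libraries. Most of that was Gs2, at 133 ± 23.5 CPM in mutant-labelled and 163 ± 19.4 CPM in wild-type libraries, with overlap. The glial gene wrapper lay below without overlap, at 12.9 ± 4.19 CPM in mutant-labelled and 20.7 ± 0.696 CPM in wild-type libraries. Of the 10 glial genes, 6 had a log2 fold change below 0 and 4 above. The defining glial factor repo was at 1.57 ± 0.905 CPM in mutant-labelled and 1.86 ± 1.11 CPM in wild-type libraries. The muscle list summed to 29.4 to 39.9 CPM in mutant-labelled and 17.1 to 22.1 CPM in wild-type libraries (0 called of 11 in edgeR, 3 with an unadjusted p under 0.05), with Mhc at 0.573 ± 0.471 CPM in mutant-labelled and 0.368 ± 0.216 CPM in wild-type libraries. Genes of epithelium and cuticle summed to 10.04 to 16.2 CPM in mutant-labelled and 27.3 to 122 CPM in wild-type libraries, with 4 lower calls among 7 tested. On this list grh went the other way, above wild type without overlap and without a call (log2 fold change 1.337, adjusted p 0.479 in edgeR). The untested gene dyl also lay above, with 1, 316 and 205 counts in mutant-labelled libraries and 0 counts in each wild-type library. Hemocyte and fat body genes without Pxn summed to 33.9 to 42.2 CPM in mutant-labelled and 18.6 to 41.9 CPM in wild-type libraries, with Hml under 1 CPM in every library (0 called of 8 in edgeR with Pxn, 1 with an unadjusted p under 0.05). Pxn alone was at 4596 ± 811 CPM in mutant-labelled and 4886 ± 257 CPM in wild-type libraries. Progenitor genes summed to 2.40 to 15.2 CPM in mutant-labelled and 13.97 to 18.8 CPM in wild-type libraries, and dpn was under 1 CPM in every library. Genes of other neurons, mostly of other transmitter types, summed to 132 to 168 CPM in mutant-labelled and 258 to 360 CPM in wild-type libraries. They held 1 lower call, DAT. Vmat, the most abundant of them, was at 54.5 ± 12.4 CPM in mutant-labelled and 128 ± 56.5 CPM in wild-type libraries. Its groups did not overlap, and it was not called (adjusted p 0.0669 in edgeR). VGlut was at 31.2 ± 0.244 CPM in mutant-labelled and 52.6 ± 18.8 CPM in wild-type libraries. For Gad1 the groups overlapped, with a log2 fold change of 0.139. The part of these cells in the changes of AcCoAS, FASN1, mAcon1 and Gapdh2 was not tested.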

How the data were processed

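For each library the authors deposited raw counts of reads for every gene. Tools named in the submitters' processing notes are HTSeq 0.11.2, STAR 2.5.4 and bcl2fastq 2.19.0.316. The genome build, annotation release and strand setting were not given in the sources used here. Library sizes and tests left out the spike-ins, 3 transgenes and 5 summary entries. Reads outside genes came to 8.59% to 10.9% of the gene counts and ambiguous reads to 2.49% to 2.66%. Chromosome arms, median transcript lengths and exon overlaps came from Ensembl gene models on release 6 of the genome assembly. Symbols came from a separate list of gene names, and both were matched by identifier. Besides Pepck1, the analysed members Gpdh1, Zw, Treh, Eno and Ald1 share more than 8% of exon bases with another gene. Without the strand setting the counts of these genes are less certain.

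Genes were filtered with filterByExpr, TMM-scaled and tested in edgeR 4.0.16 (R 4.3.3, quasi-likelihood, genotype as the 1 term, two-sided), with Benjamini-Hochberg adjustment over all 9229 genes tested. Standard errors and 95% intervals come from that fit. Of the 34 members 32 passed the filter, and Zw and Pepck1 did not. Alternatives used other scalings and filters, DESeq2 1.42.0, limma-voom (limma 3.58.1), a replicate term, removal of the length trend, and each library left out. The same alternatives for genes that are not members were added after the data were seen. Every member is named, with acj6, the called genes of the pathway lists, the defining markers and, for some lists, the most abundant marker. Desat1, C15, nrv2, Gs2, wrapper, dyl, Idh3g, SdhB, ScsbetaA, Got1, Got2, Taldo and the testis-type hexokinases were named after their values were seen. The members, the lists and the tests were chosen with earlier results of these data known. Amplified reads without molecular identifiers are not independent molecules, so limits at 3 counts cover counting error only.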

Additional observations from a re-analysis of the deposited data

Results flagged for a closer look

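Entries outside the gene counts held signal that no comparison used. The mCD8-GFP transgene was counted at 4043 to 4517 CPM in mutant-labelled libraries and at 3126 to 4230 CPM in wild-type libraries, relative to the gene counts, and the ranges overlap. The ERCC spike-in sequences, 96 in number, held between 15 and 35 counts per library, which is above the 3 counts that a total of 0 would allow and too few to scale by. No group had more than 3 libraries, so no single library was tested as an outlier.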

How the results depend on the processing

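Over the 16 alternatives, 457 of 511 values for the tested members kept both their direction and their side of the threshold, 13 lost a call, 2 gained one (kdn and Scsalpha1) and 39 turned their sign without a call. The 4 called members kept their direction, and the 39 values belong to 14 members that were not called. The log2 fold change of PyK was 0.0014 with DESeq2 and with its size factors in edgeR. With upper-quartile scaling it was -0.0163 for Pgi, -0.0095 for Pdhb and -0.0080 for Idh. With library totals alone it was -0.0425 for Pgi, -0.0138 for Ald1, -0.0307 for Pdhb, -0.0060 for muc, -0.0324 for Idh and -0.0202 for ACC. With the length trend removed it was 0.0091 for Gapdh1, 0.0502 for Pgk, 0.0768 for PyK, -0.253 for ACC and 0.0753 for Gpdh1. With 1 library left out it ranged from -0.0761 to 0.216 for Pgi, -0.0022 to 0.102 for Ald1, -0.108 to 0.0686 for PyK, -0.0557 to 0.117 for Pdhb, -0.0375 to 0.178 for muc and -0.0843 to 0.135 for Idh. The range was -0.189 to 0.0191 for Mdh1, -0.131 to 0.172 for Gpdh1, -0.296 to 0.0839 for ATPCL and -0.244 to 0.223 for ACC. For the sparse genes it was -1.14 to 0.0638 for Pgd and -7.11 to 0.398 for Ldh, fitted values that depend on the prior count. The cause of these shifts was not tested. DESeq2 called 627 genes higher and 313 lower, among them 2 lower members. With library totals alone, and also with the length trend removed, 2 pathway genes were called higher. Leaving out 1 library gave 109 to 188 genes called higher and 34 to 64 lower over all genes, 1 to 3 higher and 0 to 1 lower among the members, and 2 to 3 higher among the pathway genes. Same-numbered libraries of the groups did not deviate together (correlations 0.0164, -0.00131 and 0.0469). With 3 libraries a group, this cannot show whether they were handled in pairs. A replicate block gave 78 genes called lower, 0 members called lower (Gapdh2 at an adjusted p of 0.0512) and 2 pathway genes called higher. The median over all genes moved by less than 0.1 (log2) under every scaling. With 3 libraries a group, genes near 0 such as Ldh, Hex-C, Pgd and Zw could not be compared at this depth.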

Other observations

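Values by chromosome were as follows, with no test of the difference. Of the 6 tested X-linked members (Hex-A, Gapdh2, Pdha, kdn, Idh3a and Pgd), 5 had a log2 fold change below 0 and 4 had mutant-labelled values all below the wild-type ones, with a median of -0.33. Of the 26 members on other arms, 15 had a log2 fold change below 0 and 2 had mutant-labelled values all below the wild-type ones, with a median of -0.04. Over all 1560 tested genes of the X chromosome the median was 0.01, with 175 all below, and over the 7669 others it was -0.01, with 887 all below.

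Hexokinase reads came mostly from Hex-A. Of the level per kb summed over Hex-A, Hex-C and the testis-type hexokinases Hex-t1 and Hex-t2, Hex-A made up 83.2%, 55.5% and 85.2% in mutant-labelled libraries and 90.3%, 90.1% and 86.6% in wild-type libraries. Mutant-labelled replicate 2 stood apart through Hex-t1, at 8.12 CPM there against 1.009 and 1.40 CPM in the other mutant-labelled libraries and under 1.1 CPM in each wild-type one. The level of Hex-A itself was 13.3 ± 3.15 CPM per kb in mutant-labelled and 10.8 ± 1.24 in wild-type libraries, so the share turned on Hex-C, Hex-t1 and Hex-t2, which are near 0 in these counts. None of these 4 genes was called in edgeR.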
